A study of Mus musculus with 4 samples.

Results

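The genes described here encode 43 proteins of the large (60S) subunit of the cytosolic ribosome in mouse embryonic stem cells. They were taken by symbol from a fixed list of 60S proteins, without pseudogenes, by matching the Ensembl identifiers of the count files, version removed, to GENCODE M21. All 43 were found among the 37311 identifiers in the files, and all 43 passed the filter on low counts. The cells were of the J1 line (strain 129S4/SvJae), a feeder-free embryonic stem cell line kept in serum and leukaemia inhibitory factor. Every library came from cells infected with short hairpin RNAs against eIF4A3 (sheIF4a3-2 and sheIF4a3-3), selected with 1 μg/mL puromycin for 3 days, and given cycloheximide, which holds ribosomes in place, at 0.1 mg/mL for 1 min on day 4.5. The 2 groups were ribosome protected fragments (RPF, the pieces of mRNA covered by ribosomes) and total RNA, with 2 biological replicates each. No unperturbed cells were analysed here, so the only contrast is RPF against total RNA under the knockdown. Which hairpin each replicate received is not given in the sources used here.

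The large subunit joins amino acids into protein. Its catalytic centre is made of ribosomal RNA held by proteins, the new chain leaves through an exit tunnel, and a lateral stalk of Rplp0, Rplp1, Rplp2 and Rpl12 binds the GTPase factors that drive each step. Rpl5 and Rpl11 travel with the 5S rRNA and, when ribosome assembly fails, bind Mdm2, the ligase that removes p53. Messages of ribosomal proteins begin with a tract of pyrimidines, the 5' terminal oligopyrimidine (TOP) motif, through which mTOR signalling and LARP1 set how many ribosomes they carry. eIF4A3 is a DEAD-box helicase that clamps the exon junction complex onto spliced messages.

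Start regions of genes from the upper and lower parts of the members' range are shown first, because the TOP motif is the feature that ties these genes together. RefSeq promoter sequences (GRCm38.p6) were found for 32 of the 43 genes. In 28 of these 32 (87.5%) the sense strand held a run of at least 8 bases that were each C or T between 25 bases before and 50 bases after the annotated start, against 8213 of 27025 genes (30.4%) in the whole table. The same search on the opposite strand, a run of A or G on the sense strand, found 6 of 32 (18.8%) and 33.4% of all genes. Each line below gives 30 bases, 5′ to 3′ on the sense strand, with the longest such run in capitals. The first 3 genes are among the 5 with the highest RPF to total RNA ratio and hold a run. Rpl27 had the highest ratio and only a run of 5. The last 4 had a log2 ratio below 0, which for Rplp2 was -0.072, near the median of all tested genes (-0.02). Rpl13 (-0.23), which also holds a run, is not shown. They lie at chr5:121204521-121204550 (+ strand), chr1:72711275-72711304 (+ strand), chr14:18270967-18270996 (- strand), chr11:101442226-101442255 (+ strand), chr5:115559467-115559496 (+ strand), chr2:32961732-32961761 (+ strand), chr7:141447636-141447665 (+ strand) and chr1:39367825-39367854 (+ strand).
Rpl6: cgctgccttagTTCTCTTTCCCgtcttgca
Rpl37a: gcattgcgTCCCTTCCTCTTCggacttggg
Rpl15: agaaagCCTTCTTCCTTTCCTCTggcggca
Rpl27: cggaacgctctgTTCCTgtctgctgctcgt
Rplp0: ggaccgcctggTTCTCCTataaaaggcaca
Rpl12: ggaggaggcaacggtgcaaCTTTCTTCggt
Rplp2: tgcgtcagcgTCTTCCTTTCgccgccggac
Rpl31: tcgccacaCCTCTTCCTCCTCgcctccccg
Genes at both ends of the range thus held a pyrimidine run, and the longest run of Rplp0 was 7 bases. The median log2 ratio was 0.47 for the 28 genes with a run and 0.71 for the 4 without. A run at this position describes the letters of the reference and is not a measured start site.

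The coding sequences bear on how footprints can be assigned to a gene, since ribosomal protein genes have many processed copies in the genome. Of the 28-base stretches of the members' coding sequences, a median of 98.5% (range 11.4% to 100.0%) also occurred in the transcript of another annotated gene, and in 19 of 43 genes every one did. Over all exons the median was 29%, against 1.81% for the 12655 tested protein-coding genes. The sequences below give the first 240 coding bases from the start codon, 5′ to 3′, from GENCODE M21 (GRCm38), of Rplp0 and Rplp2 from the stalk, of Rpl27, which had the highest ratio, and of Rpl22, chosen after its values were seen as the called gene with the least shared coding sequence. Capitals mark bases inside at least 1 stretch of 28 found in no other gene, and lower case marks bases that no such stretch covers. Their whole coding regions span chr5:115559835-115563441 (+ strand, 6 coding exons), chr7:141447909-141451305 (+ strand, 4 coding exons), chr11:101442725-101445484 (+ strand, 4 coding exons) and chr4:152325884-152332421 (+ strand, 4 coding exons).
Rplp0: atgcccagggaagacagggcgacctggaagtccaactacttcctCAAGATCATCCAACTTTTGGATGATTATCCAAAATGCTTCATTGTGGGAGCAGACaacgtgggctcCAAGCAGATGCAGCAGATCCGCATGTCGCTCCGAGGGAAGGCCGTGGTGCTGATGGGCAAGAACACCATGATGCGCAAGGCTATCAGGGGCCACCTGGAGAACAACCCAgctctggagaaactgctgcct
Rplp2: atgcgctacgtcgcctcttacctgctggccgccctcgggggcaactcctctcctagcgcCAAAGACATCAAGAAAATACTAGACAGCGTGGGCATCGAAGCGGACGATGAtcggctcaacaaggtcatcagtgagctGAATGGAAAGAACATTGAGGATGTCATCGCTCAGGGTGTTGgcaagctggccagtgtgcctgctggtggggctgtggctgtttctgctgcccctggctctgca
Rpl27: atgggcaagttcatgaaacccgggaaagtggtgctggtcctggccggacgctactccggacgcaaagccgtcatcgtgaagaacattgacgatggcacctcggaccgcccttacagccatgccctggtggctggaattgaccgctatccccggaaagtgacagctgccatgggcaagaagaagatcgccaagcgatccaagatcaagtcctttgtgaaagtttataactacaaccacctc
Rpl22: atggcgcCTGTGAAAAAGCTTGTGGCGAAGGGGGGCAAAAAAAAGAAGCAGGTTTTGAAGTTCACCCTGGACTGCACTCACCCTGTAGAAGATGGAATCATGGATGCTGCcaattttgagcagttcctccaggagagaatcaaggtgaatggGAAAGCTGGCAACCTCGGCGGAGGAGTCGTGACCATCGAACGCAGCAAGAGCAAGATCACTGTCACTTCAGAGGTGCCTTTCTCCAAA
Shared stretches made up 78.9% of the coding sequence of Rplp0, 88.1% of Rplp2, 100.0% of Rpl27 and 61.6% of Rpl22. Genes with a higher ratio had a median of 100.0% of coding stretches shared, the 2 with a lower ratio 89.4%, and those that did not pass 97.0%. Across the 43 genes, which share their libraries, this share and the ratio had a Pearson's r of -0.0021. How the counting placed such reads was not tested, so every value below is uncertain to that extent.

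The 4 libraries held between 7615277 and 9434987 gene counts, and the 43 genes together took 418781 counts of RPF replicate 1, 279705 of RPF replicate 2, 415258 of total RNA replicate 1 and 349928 of total RNA replicate 2. No member had fewer than 694 counts in any library. The summed level of 9 pluripotency markers ran from 3943 to 6281 CPM (read counts brought to a common library size with TMM, the trimmed mean of M-values) and that of 6 fibroblast markers from 5.16 to 12.5 CPM, with Dcn at 0 counts in all 4 libraries. Eif4a3, the targeted gene, had 212 and 193 CPM in RPF replicates 1 and 2 and 120.3 and 101 CPM in total RNA replicates 1 and 2 (log2 ratio 0.87 ± 0.15 SE, adjusted p = 0.00477), with no unperturbed level beside it. Reads that overlapped more than 1 annotated gene were 4.96% and 8.58% of RPF reads and 0.755% and 0.719% of total RNA reads, and their part in the ratios was not tested.

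RPF were compared with total RNA gene by gene, to ask how many footprints each message carried relative to its abundance and to all other genes. The quotient, RPF over total RNA on the log2 scale, is given below as the ratio. Of the 43 genes, 13 had a higher ratio, 2 a lower one and 28 did not pass (30.2% higher and 4.65% lower by edgeR's quasi-likelihood test, Benjamini-Hochberg adjusted over 13809 genes, threshold 0.05). By the same test 20.5% of all tested genes were higher, 21.2% lower and 41.7% either. Rpl27 (log2 ratio 1.01), Rpl6 (0.99) and Rpl23a (0.97) stood highest, and Rplp0 (-1.31) and Rpl12 (-0.72), the core and the base of the stalk, stood lowest. The median ratio of the members was 0.49, against -0.02 for all tested genes, and 35 of 43 lay above that median. Both RPF libraries exceeded both total RNA libraries in 25 members, against 34.9% of all tested genes, and both lay below in 6 members, against 37.9%. Only Rplp0 and Rpl27 combined a call with a change of at least 2-fold. These are bulk libraries, in which fewer cells with a message and less message per cell cannot be told apart.

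The members' calls moved with the library left out, in fits where 1 fraction keeps a single library that is assumed to vary like the other fraction. Without RPF replicate 1, 8 members were higher and 4 lower, with a median of 0.19, where 20.9% of all tested genes were higher and 20.8% lower. Without RPF replicate 2, 22 were higher and 2 lower, with a median of 0.73, against 22.9% and 23.6% of all genes. Without total RNA replicate 1, 4 were higher and 1 lower, against 14.1% and 14.4%. Without total RNA replicate 2, 0 were higher and 1 lower, against 12.0% and 12.9%. The share of all genes called thus fell too when a total RNA library was left out, while the members' medians were 0.55 and 0.37. Rpl23a, Rpl36, Rpl27 and Rpl37a kept their call without total RNA replicate 1, and only Rplp0 kept its call without total RNA replicate 2. With all 4 libraries DESeq2 called 20 higher and 3 lower, against 18.8% and 16.8% of all tested genes. By limma-voom 13 were higher and 2 lower, against 20.2% and 21.1%. A correction of all genes for coding share and exon length took the members' median to 0.18 and its distance from the all-gene median from 0.52 to 0.20. It left 6 members higher and 4 lower, against 17.7% and 18.2% of all genes, so that the members' share of higher calls was then not above that of all genes. Rpl6, Rpl15, Rpl18, Rpl21 and Rpl22 kept a higher call under it and Rplp0 a lower one, Rplp1, Rpl31 and Rpl29 were called lower and Rpl30 higher. With library size as the only scaling, the all-gene median went from -0.02 to -0.46, that of the members to 0.05, and the distance between both medians was 0.51. Under it 4 members were called higher and 8 lower, against 8.86% and 35.9% of all genes. Rpl3, Rpl4, Rpl5, Rpl7, Rpl9, Rpl14, Rpl17, Rpl26, Rpl27a, Rpl32 and Rpl36a, none of them called, went from above to below 0 under that scaling. The direction of the members as a group is therefore a direction relative to other genes.

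**Figure D1:**
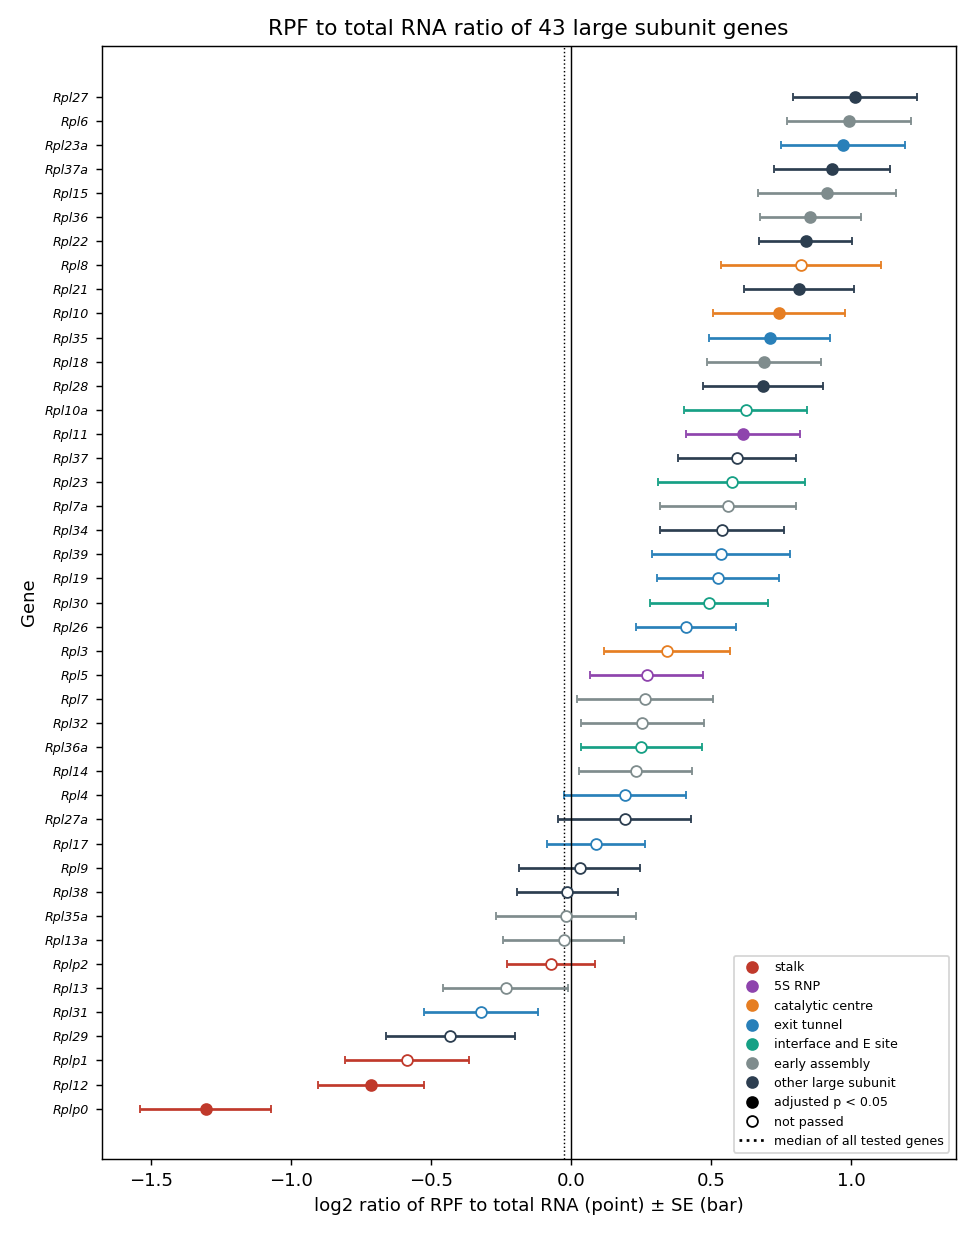
Log2 ratio of RPF to total RNA (x axis) of each of the 43 genes (y axis, ordered by ratio), with the standard error as a bar, coloured by role; filled points passed an adjusted p of 0.05 and the dotted line is the median of all tested genes. The 4 stalk genes (red) all lie below 0, from -1.31 to -0.072, and the 13 genes called higher lie between 0.61 and 1.01.

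The stalk stood at the low end, though the roles were chosen with earlier results of these data known. Rplp0, the protein that anchors the P1 and P2 dimers to the ribosome, had 1353 and 1074 CPM in RPF replicates 1 and 2 and 3227 and 2776 CPM in total RNA replicates 1 and 2. Both RPF libraries lay below both total RNA libraries, and the level in total RNA was 2.47-fold higher (log2 ratio -1.31 ± 0.23 SE, adjusted p = 0.00503). Rplp0 passed under all 15 alternative settings tried, with an adjusted p of at most 0.0239. Rpl12, which sits beside Rplp0 at the stalk base, had 953 and 1065 CPM in RPF replicates 1 and 2 and 1675 and 1641 CPM in total RNA replicates 1 and 2 (log2 ratio -0.72 ± 0.19 SE, adjusted p = 0.0217). The groups did not overlap for Rpl12 either, and its ratio lay at -0.55 or lower under all 15 alternatives. Its call was lost in 5 of them, namely without RPF replicate 1, without either total RNA library, with glmTreat and under the correction for coding share and exon length. Rplp1, one of the acidic tip proteins, had 999.6 and 729.6 CPM in RPF replicates 1 and 2 and 1397 and 1199.8 CPM in total RNA replicates 1 and 2. Its RPF libraries lay below its total RNA libraries, and its ratio did not pass (log2 ratio -0.59 ± 0.22 SE, adjusted p = 0.0705). It was called lower under 7 of 15 alternatives, among them the fit without RPF replicate 1 and DESeq2. Rplp2, its partner in the dimer, had 575 and 554 CPM in RPF replicates 1 and 2 and 605 and 582 CPM in total RNA replicates 1 and 2. The 4 values of Rplp2 lay within 1 narrow range, and its ratio did not pass (log2 ratio -0.072 ± 0.16 SE, adjusted p = 0.743). Of these 4 genes, 2 were thus lower and 0 higher, with a median of -0.65. By DESeq2 3 were lower and 0 higher. At an unadjusted p under 0.05 by edgeR 3 were lower and 0 higher. Counts at an unadjusted p, here and below, come without the share of all tested genes at that threshold.

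Both genes of the 5S particle lay above 0. Rpl11 had 1014 and 783 CPM in RPF replicates 1 and 2 and 637 and 537 CPM in total RNA replicates 1 and 2. Both RPF libraries lay above both total RNA libraries, and the ratio passed narrowly (log2 ratio 0.61 ± 0.20 SE, adjusted p = 0.0469). Its call was lost under 9 of 15 alternatives, among them the fits without RPF replicate 1 and without either total RNA library. Rpl5, which carries the 5S rRNA with Rpl11, had 1670.0 and 1360.1 CPM in RPF replicates 1 and 2 and 1261 and 1253 CPM in total RNA replicates 1 and 2. Its RPF values were again the higher ones, and its ratio did not pass (log2 ratio 0.27 ± 0.20 SE, adjusted p = 0.317).

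Of the 3 proteins that reach toward the catalytic centre, Rpl10, one of the last proteins to join the subunit, had a higher ratio (0.74, adjusted p = 0.0406). The call of Rpl10 was lost under 7 of 15 alternatives, among them glmTreat and the correction for coding share and exon length. Rpl8, among the most conserved proteins at the catalytic centre, had 2753 and 1623 CPM in RPF replicates 1 and 2 and 1312 and 1166 CPM in total RNA replicates 1 and 2. RPF replicate 1 stood far above the other 3 libraries, and the ratio of Rpl8 did not pass (log2 ratio 0.82 ± 0.29 SE, adjusted p = 0.0546), although Rpl10 with a smaller ratio did. It was called higher by DESeq2 and without RPF replicate 2. Rpl3, whose tip also reaches the centre, did not pass (0.34, adjusted p = 0.256).

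Proteins of the exit tunnel and its rim were higher in 2 of 8 genes, with a median of 0.47. Rpl23a, which sits at the rim where nascent chains meet the signal recognition particle, had 1659 and 1197 CPM in RPF replicates 1 and 2 and 763 and 694 CPM in total RNA replicates 1 and 2. Both RPF values lay above both total RNA values (log2 ratio 0.97 ± 0.22 SE, adjusted p = 0.0123). Its call was lost with glmTreat, without total RNA replicate 2 and under the correction for coding share and exon length. Under that correction the ratio of Rpl23a was 0.26 (adjusted p = 0.384). Rpl35, its neighbour at the rim, was higher too (0.71, adjusted p = 0.0354), and its ratio was 0.29 under that correction. The call of Rpl35 was lost under 6 of 15 alternatives, that correction among them. Rpl39 (0.54), Rpl19 (0.52), Rpl26 (0.41), Rpl4 (0.19) and Rpl17 (0.089) lay above 0 and did not pass, with adjusted p from 0.0917 to 0.713. Rpl4 and Rpl17 line the narrow part of the tunnel, and Rpl39 lines its lower part. Rpl31 was the 1 tunnel gene below 0, with 465 and 326 CPM in RPF replicates 1 and 2 and 506 and 482 CPM in total RNA replicates 1 and 2 (log2 ratio -0.32 ± 0.20 SE, adjusted p = 0.241). Its 2 RPF values lay below both total RNA values, and it was called lower without RPF replicate 1.

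The 4 proteins of the subunit interface and the exit site for tRNA lay between 0.25 and 0.62, with a median of 0.53. None passed in edgeR (0 higher and 0 lower), and 1 was higher at an unadjusted p under 0.05 there. DESeq2 called 2 higher and limma-voom 0. Without RPF replicate 2, Rpl10a, Rpl23 and Rpl30 were called higher. Rpl10a, of the mobile L1 stalk, stood at 0.62 (adjusted p = 0.0567). Rpl23, on whose surface the anti-association factor eIF6 sits, stood at 0.57. Rpl30, part of a bridge to the small subunit, stood at 0.49 and Rpl36a, at the exit site, at 0.25.

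Of 11 proteins that join early in nucleolar assembly, 4 were higher, with a median of 0.26. Rpl6 had 1958 and 1439 CPM in RPF replicates 1 and 2 and 887 and 822 CPM in total RNA replicates 1 and 2 (log2 ratio 0.99 ± 0.22 SE, adjusted p = 0.0114). Rpl15, needed for processing of the large rRNA precursor, had 1845 and 1241 CPM in RPF replicates 1 and 2 and 889.8 and 749 CPM in total RNA replicates 1 and 2 (log2 ratio 0.91 ± 0.25 SE, adjusted p = 0.023). For Rpl6 and Rpl15 each RPF library exceeded each total RNA library. Rpl36 (0.85, adjusted p = 0.00913) and Rpl18 (0.69, adjusted p = 0.0316) were higher too. Rpl7a (0.56), Rpl7 (0.26), Rpl32 (0.25) and Rpl14 (0.23) were above 0 without a call. Rpl35a (-0.019), Rpl13a (-0.027) and Rpl13 (-0.23) were at or below 0 without one. Rpl13a is also known to leave the ribosome and silence inflammatory messages in myeloid cells.

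Among the 11 remaining proteins 5 were higher, with a median of 0.59. Rpl27, mutated in some cases of Diamond-Blackfan anaemia, had 952 and 748 CPM in RPF replicates 1 and 2 and 485 and 357 CPM in total RNA replicates 1 and 2 (log2 ratio 1.01 ± 0.22 SE, adjusted p = 0.0104). Rpl37a, a small zinc-finger protein, had 1562 and 1235 CPM in RPF replicates 1 and 2 and 787 and 679 CPM in total RNA replicates 1 and 2 (log2 ratio 0.93 ± 0.21 SE, adjusted p = 0.0112). The lowest RPF value of each lay above its highest total RNA value. Rpl22, a protein that is dispensable for most translation and has a paralog that can take its place, had 840.0 and 897 CPM in RPF replicates 1 and 2 and 505 and 467 CPM in total RNA replicates 1 and 2 (log2 ratio 0.84 ± 0.17 SE, adjusted p = 0.00754). It had the lowest adjusted p among the genes called higher and was 1 of 2 members whose RPF replicate 2 exceeded replicate 1. Rpl21 (0.81, adjusted p = 0.0157) and Rpl28 (0.68, adjusted p = 0.0383) were higher as well. The call of Rpl28 was lost under 7 of 15 alternatives and that of Rpl21 under 4. Rpl37 (0.59, adjusted p = 0.0591) and Rpl34 (0.54, adjusted p = 0.0904) did not pass, nor did Rpl27a (0.19), Rpl9 (0.03) and Rpl38 (-0.014), a protein known for its part in translation of Hox messages. Rpl29 was the least abundant member, with 160.1 and 101 CPM in RPF replicates 1 and 2 and 193 and 159 CPM in total RNA replicates 1 and 2 (log2 ratio -0.43 ± 0.23 SE, adjusted p = 0.172). Its groups touched, since RPF replicate 1 exceeded total RNA replicate 2, and it was called lower without RPF replicate 1.

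**Figure D2:**
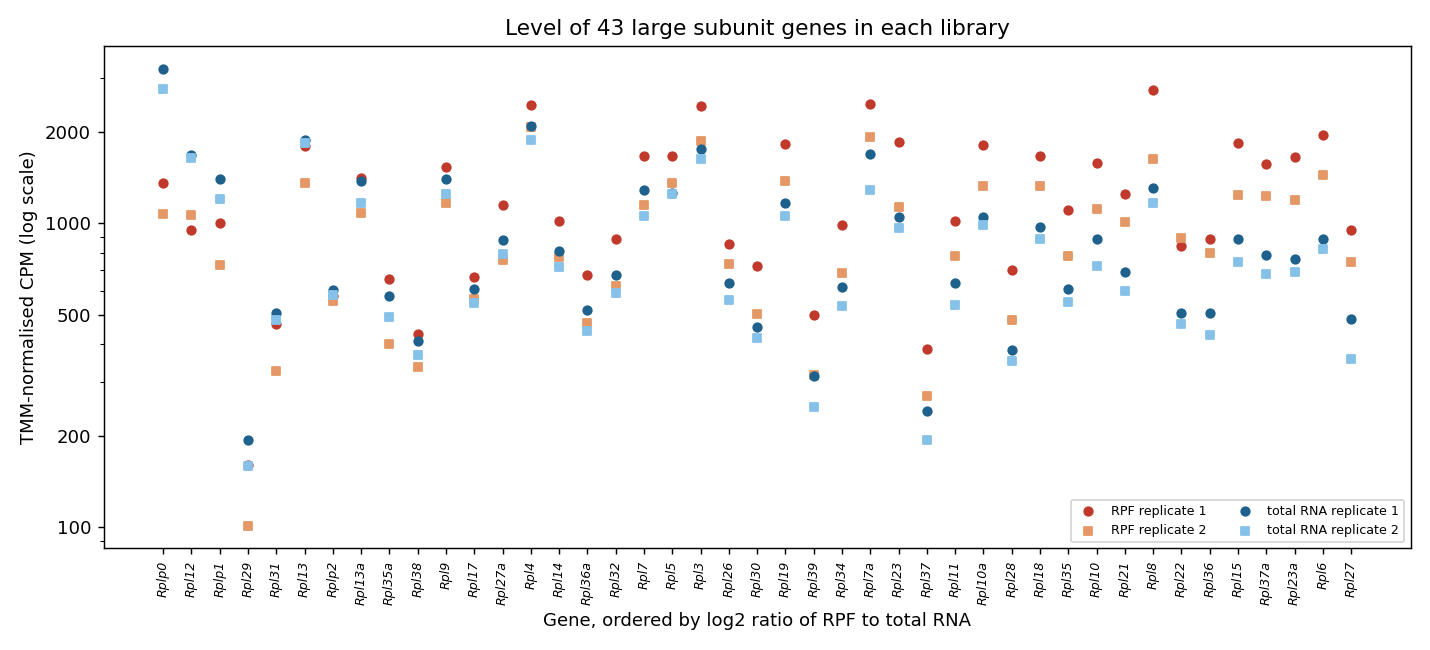
TMM-normalised CPM on a log axis (y) of each gene (x, ordered by ratio) in each of the 4 libraries. RPF points (red and orange) lie below the total RNA points (blue) for Rplp0, Rpl12 and Rplp1 at the left and above them for Rpl27, Rpl6 and Rpl23a at the right.

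Proteins of one particle are needed in like numbers, which makes the density of footprints per length of coding sequence a natural scale for these genes. On that scale, RPF CPM per kilobase of coding sequence, 41 of 43 genes lay within 2-fold of the median of 2051, and the upper quartile was 1.47 times the lower. The exceptions were Rpl37a at 5067 ± 838 and Rpl29 at 272 ± 86.7 (SD, n = 2 libraries), an 18.6-fold span. Total RNA CPM per kilobase of the same coding sequence put 38 of 43 within 2-fold of its median with a quartile ratio of 1.44, and per kilobase of the principal transcript 34 of 43 with a quartile ratio of 1.88. The middle of the distribution was thus about as wide in both fractions when the same length was used. Rplp0 changed place most plainly, from position 3 of 43 at 2210.5 ± 235 CPM per kilobase of transcript in total RNA to position 39 of 43 at 1276 ± 207 CPM per kilobase of coding sequence in RPF. Rplp1 led total RNA at 2602 ± 279 CPM per kilobase of transcript. In RPF it stood at position 11 at 2528 ± 558 CPM per kilobase of coding sequence. On the same coding length, total RNA stood at 3157 for Rplp0 and 3796 for Rplp1. Rpl29, with 99.8% of its coding stretches shared, was last in both fractions. P1 and P2 are the exception to equal numbers, since each ribosome carries a pair of dimers. Rplp2 stood at 1636 ± 44.1 CPM per kilobase of coding sequence in RPF, at position 35 of 43 and below the median of 2051. Rplp1 lay above that median, by less than 2-fold.

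**Figure D3:**
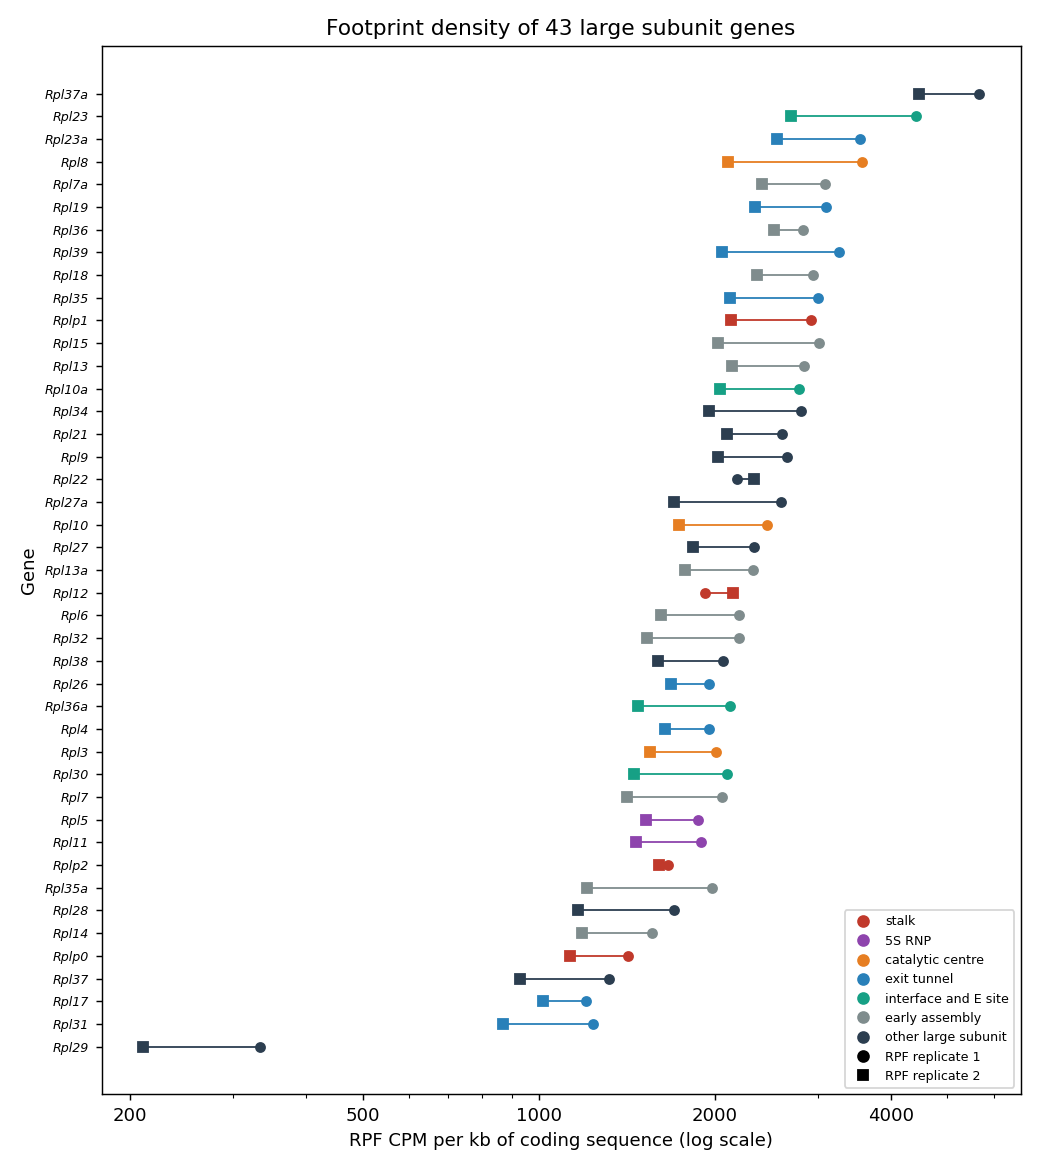
RPF CPM per kilobase of coding sequence (x, log scale) for each gene (y, ordered by mean), with replicate 1 as a circle and replicate 2 as a square, coloured by role. The means of all genes but Rpl37a and Rpl29 lie within 2-fold of the median of 2051, single replicates of Rpl23, Rpl37, Rpl17 and Rpl31 lie outside it, and Rpl29 stands alone at the low end with a mean of 272.

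Taken as 1 group, the members held 4.44% and 3.67% of RPF gene counts (exact 95% intervals 4.43% to 4.45% and 3.66% to 3.69%) and 4.63% and 4.26% of total RNA gene counts (4.62% to 4.64% and 4.24% to 4.27%). The intervals cover counting error alone, and reads that carry no molecular identifier need not stand for separate molecules. The shares averaged 4.06 ± 0.541% in RPF and 4.44 ± 0.263% in total RNA (SD, n = 2), a difference of -0.388 percentage points (exact two-sided permutation p = 0.667, where 2 against 2 libraries cannot go below 0.333). Of counts on protein-coding genes they held 4.78 ± 0.628% and 4.79 ± 0.245% (exact permutation p = 1). The share was thus not higher in RPF while the median ratio was above 0. Unlike the ratio, the share weighs genes by their abundance and takes no TMM scaling.

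The replicates of a fraction differed in 1 direction. In RPF, replicate 1 exceeded replicate 2 in 41 of 43 members, with a median log2 difference of 0.41, and the exceptions were Rpl12 (-0.16) and Rpl22 (-0.095). The widest gap was that of Rpl8 (0.76), and 6 members differed by at least 1.5-fold. In total RNA, replicate 1 was the higher in 43 of 43, with a median of 0.17 and the widest gap at Rpl27 (0.44), and 0 members differed by 1.5-fold. Among 1294 tested genes at least as abundant as the lowest member, the medians were 0.15 in RPF, with 894 higher, and 0.12 in total RNA, with 928 higher. The small subunit genes had medians of 0.52 and 0.15. Set against each total RNA library in turn, RPF replicate 1 gave a median log2 difference of 0.55 and 0.79 over the members, and RPF replicate 2 gave 0.12 and 0.26. The size of the members' ratio therefore rested more on RPF replicate 1. No test of these differences was run with 2 libraries a fraction, and the 4 medians share libraries.

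**Figure D4:**
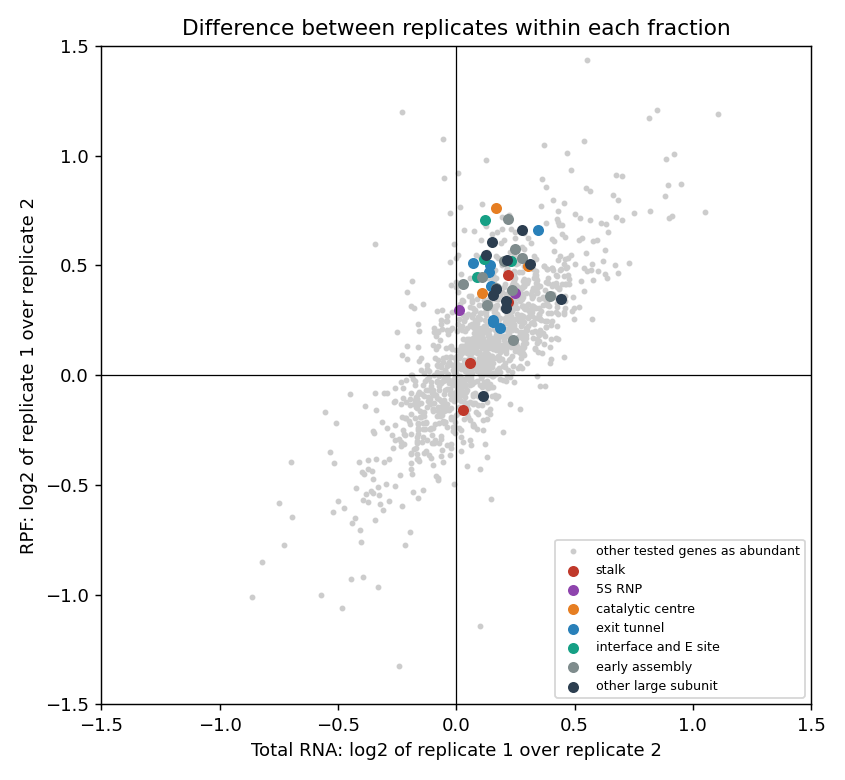
Log2 of replicate 1 over replicate 2 in total RNA (x) and in RPF (y) for the 43 genes (coloured by role) and for tested genes as abundant (grey, 6 of 1294 beyond the axes). The members lie to the right of 0 and, apart from Rpl12 and Rpl22, above 0.

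Close relatives of the members were read beside them. Rpl10l, a retrogene of Rpl10 known from the testis, had 196 and 184 CPM in RPF replicates 1 and 2 and 89.4 and 71.6 CPM in total RNA replicates 1 and 2 (log2 ratio 1.24 ± 0.16 SE, adjusted p = 0.00168). Rpl36al, a relative of Rpl36a, had 353 and 265 CPM in RPF replicates 1 and 2 and 160.5 and 139 CPM in total RNA replicates 1 and 2 (log2 ratio 1.04 ± 0.19 SE, adjusted p = 0.00502). Both passed under all 15 alternatives, none of which changed how reads were assigned to genes. Of the coding stretches of 28 bases, 43.6% of Rpl10l and 100.0% of Rpl36al also occurred in another gene. Rpl39l had 65 and 43.2 CPM in RPF replicates 1 and 2 and 36.2 and 29.9 CPM in total RNA replicates 1 and 2 and was higher as well (log2 ratio 0.71 ± 0.22 SE, adjusted p = 0.04). The call of Rpl39l was lost under 6 of 15 alternatives. These were library size only, a mean of at least 10 CPM, glmTreat, the correction for coding share and exon length, and the fits without RPF replicate 1 and without total RNA replicate 2. The RPF values of these 3 relatives lay above their total RNA values. Rpl7l1 had 242 and 216 CPM in RPF replicates 1 and 2 and 203 and 151 CPM in total RNA replicates 1 and 2 and did not pass (log2 ratio 0.37 ± 0.18 SE, adjusted p = 0.143). Rpl22l1, the paralog of Rpl22, had 35.3 and 23.6 CPM in RPF replicates 1 and 2 and 32.4 and 29 CPM in total RNA replicates 1 and 2 and did not pass (log2 ratio -0.057 ± 0.22 SE, adjusted p = 0.856). Rpl3l was nearly silent at 5 to 23 counts, with 1.55 and 1.31 CPM in RPF replicates 1 and 2 and 2.25 and 0.516 CPM in total RNA replicates 1 and 2, and did not pass (log2 ratio 0.041 ± 0.70 SE, adjusted p = 0.968). Pseudogenes that share stretches with the members, 595 in the files, together held few counts beside the members. Set against the members' counts they came to 0.190% in RPF replicate 1, 0.172% in RPF replicate 2, 0.676% in total RNA replicate 1 and 0.661% in total RNA replicate 2. Single genes differed. In RPF replicates 1 and 2 and total RNA replicates 1 and 2, pseudogenes sharing stretches with Rpl29 held 271, 110, 176 and 143 counts. Rpl29 itself held 1238, 694, 1972 and 1545. Those sharing stretches with Rpl22 held 284, 189, 308 and 222, beside 6497, 6155, 5159 and 4528 of Rpl22.

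Genes of the other subunit and of 60S assembly gave a scale for the members. Of 33 small subunit genes 10 were higher and 3 lower with a median of 0.18, from Rps12 to Rps16. Rps12 had 567 and 358 CPM in RPF replicates 1 and 2 and 1431 and 1128 CPM in total RNA replicates 1 and 2 (log2 ratio -1.47 ± 0.27 SE, adjusted p = 0.00528). Rps16 had 1613 and 1017 CPM in RPF replicates 1 and 2 and 543 and 463 CPM in total RNA replicates 1 and 2 (log2 ratio 1.39 ± 0.26 SE, adjusted p = 0.00578). The small subunit median was -0.26 with library size only and -0.10 without RPF replicate 1. Of 48 assembly factors found among 49 listed, nucleolar and cytoplasmic proteins that build the 60S subunit and are not part of it, 34 were higher and 2 lower with a median of 0.76. Ppan, an early nucleolar factor of 60S assembly, stood highest with 352 and 340.1 CPM in RPF replicates 1 and 2 and 113 and 104 CPM in total RNA replicates 1 and 2 (log2 ratio 1.68 ± 0.14 SE, adjusted p = 0.000633). Mdn1, the AAA ATPase that strips assembly factors, was lowest with 394 and 326 CPM in RPF replicates 1 and 2 and 583 and 518 CPM in total RNA replicates 1 and 2 (log2 ratio -0.61 ± 0.17 SE, adjusted p = 0.0274). Rsl24d1, which holds the place of Rpl24 in precursors, was the other lower gene at -0.46 (adjusted p = 0.0297), named here after its value was seen. The lower calls of Mdn1 and Rsl24d1 were each lost under 5 of 15 alternatives. For both these included glmTreat and the fits without RPF replicate 2 and without either total RNA library. Mdn1 also lost its call under the correction for coding share and exon length, and Rsl24d1 in DESeq2. The assembly factors' median was 0.69 without total RNA replicate 2, where fewer of them, as of all genes, were called. Differences between these sets were not tested.

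**Figure D5:**
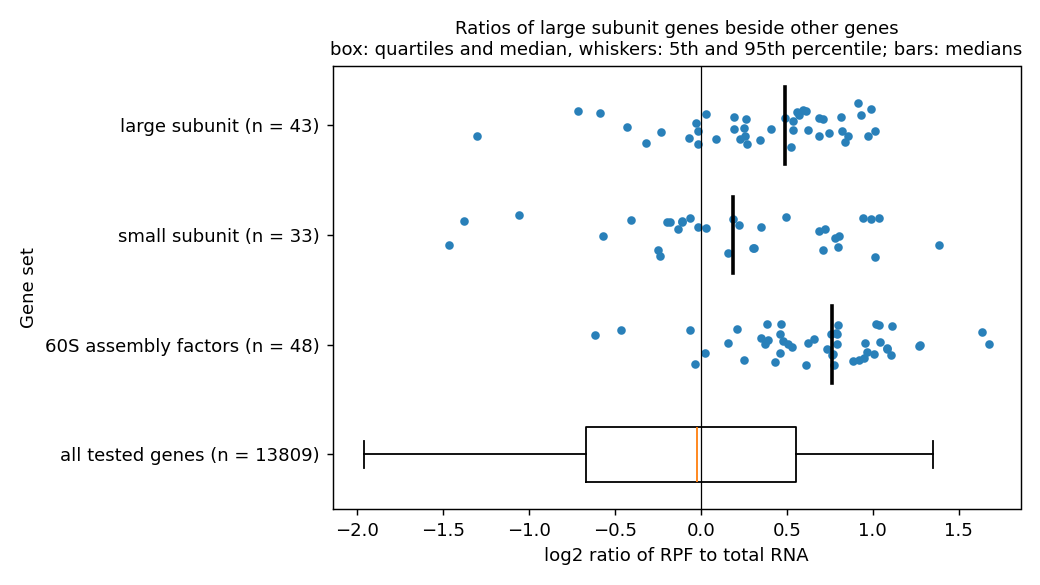
Log2 ratio of RPF to total RNA (x) of each gene of 3 sets (points, with the median as a bar) and of all 13809 tested genes (box with quartiles and median, whiskers at the 5th and 95th percentile). The medians are 0.49 for the large subunit, 0.18 for the small subunit, 0.76 for the assembly factors and -0.02 for all genes.

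Other properties of the genes were described against the ratio across the 43 members, which share libraries and are not independent. Pearson's r was 0.04 for exon length, -0.094 for coding length, -0.14 for the coding share of the exons and -0.31 for the level in total RNA. Total RNA is also the denominator of the ratio. Error in that level alone would lower the last r, and no relation is read from it. A small nucleolar RNA gene lay inside 19 of the 43 genes.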

How the data were processed

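Total RNA and ribosome protected fragments (TruSeq Ribo Profile kit with Ribo-Zero Gold, per the labels' protocols; 50 bp reads, each RPF library sequenced in 4 runs) were measured in 2 replicates each. The authors deposited 1 table of raw gene counts per library; the submitters' processing notes name Bowtie 1.2.3, TopHat2 2.1.1, HTSeq 0.11.2, edgeR 3.26.8 and build mm9. Annotation release, strand setting and joining of runs were each not given in the sources used here. The 5 closing tallies of each library were left out of library sizes. Reads tallied as overlapping no counted feature were 5.95% and 6.66% of RPF reads and 23.4% and 26.2% of total RNA reads. Reads with several alignments were 21.0%, 20.6%, 16.6% and 16.5%.

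Symbols, lengths and transcripts came from GENCODE M21 (GRCm38), which named 32621 of 37311 identifiers (87.4%); no coordinate is converted to mm9. Counts were fitted in edgeR 4.0.16 (R 4.3.3, limma 3.58.1) by quasi-likelihood with fraction as the only term, after filterByExpr (minimum count 10, minimum total 15; 13809 genes) and TMM, with factors of 0.821 and 0.902 for RPF and 1.14 and 1.18 for total RNA. Tests were two-sided with Benjamini-Hochberg adjustment over all tested genes and a threshold of 0.05. SE is the size of the log2 ratio over the square root of F. The script was tested on simulated data. The labels call the replicates biological, and no more is said of their cultures.

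All 43 members could be named. Levels in every library were printed for Rplp0, Rplp1, Rplp2, Rpl5, Rpl11, the 5 highest and 5 lowest ratios, the widest replicate gap in each fraction, Eif4a3 and relatives found in the files, with the extremes of the small subunit and assembly lists at 10 CPM or more; Rpl22 was added after its values were seen. Other 60S genes named by the rule are not reported here. Members, roles and lists were chosen with earlier results of these data known. Alternatives were DESeq2 (1.42.0) and its size factors, library size only, TMM without ribosomal protein genes, no filter, a mean of 10 CPM, glmTreat against a fold of 1.5, limma-voom, a replicate block, protein-coding genes only, a loess correction (span 0.5) for coding share and exon length, and each library left out.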

Additional observations from a re-analysis of the deposited data

How the results depend on the processing

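The counts of 13 higher and 2 lower members were the same with DESeq2 size factors, TMM without ribosomal protein genes and limma-voom, with medians of 0.52, 0.49 and 0.47. Library size only gave 4 and 8 (median 0.049), and the correction for coding share and exon length 6 and 4 (0.18). With glmTreat 0 were higher and 1 lower, against 8.36% and 11.2% of all genes (7 higher at an unadjusted p under 0.05). DESeq2 gave 20 higher, against 18.8% of all genes. Leaving out 1 library gave 0 to 22 higher, 1 to 4 lower and a median of 0.19 to 0.73. The difference in share of counts lay between -0.771 and -0.0051 percentage points when 1 library was left out. Same-numbered libraries deviated together (r = 0.48 over 13809 genes, 2 pairs), but the labels do not state a shared lysate, so they share only a number; with replicate number as a block 29 members were higher and 6 lower, 15 small subunit genes higher and 7 lower, and 42 assembly factors higher, where 30.8% of all genes were higher and 31.6% lower.

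The settings for the comparison lists and the genes outside the 43 were chosen after seeing the data. Small subunit genes numbered 5 higher and 12 lower (median -0.26) with library size only, 2 higher with glmTreat, and 5 and 5 after the correction; leaving out 1 library gave 3 to 13 higher and medians of -0.10 to 0.45. Assembly factors numbered 17 higher and 4 lower (median 0.33) with library size only, 17 and 0 with glmTreat, 1 lower in DESeq2, and had a median of 0.61 after the correction; leaving out 1 library gave 21 to 34 higher and 0 to 2 lower.

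Ratios changed sign only where no call was made in either fit. With DESeq2 size factors the sign changed for Rpl35a (0.0072), Rpl38 (0.012). With library size only the sign changed for Rpl5 (-0.17), Rpl3 (-0.096), Rpl4 (-0.24), Rpl17 (-0.35), Rpl26 (-0.024), Rpl36a (-0.19), Rpl7 (-0.18), Rpl14 (-0.21), Rpl32 (-0.19), Rpl9 (-0.41), Rpl27a (-0.25), Rpl3l (-0.38), Rpl7l1 (-0.062). Without a filter on low counts the sign changed for Rpl9 (-0.012), Rpl3l (-0.0019). At a mean of at least 10 CPM the sign changed for Rpl9 (-0.051). With the coding share and exon length correction the sign changed for Rpl4 (-0.35), Rpl17 (-0.47), Rpl19 (-0.19), Rpl14 (-0.25), Rpl32 (-0.35), Rpl35a (0.23), Rpl3l (-0.51). In DESeq2 the sign changed for Rpl35a (0.0071), Rpl38 (0.012). Leaving out 1 library gave ratios of Rpl17 -0.025 to 0.22, Rpl36a -0.022 to 0.50, Rpl7 -0.016 to 0.52, Rpl13a -0.22 to 0.17, Rpl32 -0.016 to 0.50, Rpl35a -0.41 to 0.31, Rpl9 -0.17 to 0.23, Rpl27a -0.13 to 0.48, Rpl38 -0.20 to 0.17, Rpl3l -0.65 to 1.44, Rpl22l1 -0.37 to 0.22. The cause of these changes was not tested. Every member had 694 counts or more, and 2 replicates a fraction limit the precision.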
